A study of Homo sapiens with 4 samples.

Results

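Of 26484 gene rows measured in the A375 melanoma line and in its p53 knockout, 6 genes of low expression are described here. These are PRSS3, RNF17, FGL2, LPAR4, ADRA2A and the non-coding RNA BANCR. Both knockout libraries held few or no reads of them, a pattern that other rows named below shared. The 6 genes were chosen by name, as rows higher in both parental libraries than in both knockout libraries, where they were at or near 0. The values that chose them are therefore given as a description, without a test. A375 is a human melanoma cell line with an activating BRAF mutation. The 2 parental libraries carry wild-type p53, a transcription factor and tumour suppressor, and the 2 others come from cells of the same line in which p53 was knocked out with CRISPR-Cas9. All cells were grown in DMEM, and poly(A)-selected RNA was sequenced. Whether the libraries are separate cultures, and whether the knockout is 1 clone, is not in the labels. A p-value here therefore reflects library-to-library spread alone, which may be technical. Spread was wider within the knockout pair, with a chi-square per degree of freedom over gene counts of 61.6, than within the parental pair, with 5.57. No edited cells that kept p53 were analysed here, so loss of p53 cannot be told apart from the derivation of the edited cells.

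The 6 genes have different jobs. PRSS3 encodes mesotrypsin, a trypsinogen of the pancreas and brain that is also made by some tumours and resists most trypsin inhibitors. RNF17 encodes a germ cell protein with a RING finger and tudor domains, a family that works with PIWI proteins and piRNAs in the silencing of transposons. FGL2, fibrinogen-like protein 2, is a prothrombinase at the cell membrane and, when secreted, an immunosuppressive effector of T cells. LPAR4 and ADRA2A are G protein-coupled receptors, the first for lysophosphatidic acid and the second for adrenaline and noradrenaline. BANCR is a long non-coding RNA named for its induction by mutant BRAF in melanocytes and melanoma.

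Sequencing depth was similar in the 4 libraries, at 29230554 to 36331894 recovered reads, and 1 read was worth 0.877 to 1.10 normalized counts (read counts divided by a size factor per library). The knockout libraries are called 2 and 8 after the deposited table. Of 12 melanocyte markers 8 were tested, and 4 were lower and 3 higher in the knockout libraries without overlap. Of all genes tested, 23.7% were lower and 22.8% higher without overlap. SOX10, a lineage factor, had 30033 and 29587 against 28125 and 25662, and S100B and S100A1 had 2138 and 2037 against 1728 and 1428, and 5910 and 5557 against 3285 and 5068. MITF, the master regulator of the lineage, had 1645 and 1562 against 849 and 1050 and was called lower by DESeq2 (adjusted p = 0.0027) but not by limma (adjusted p = 0.237). PMEL, CSPG4 and SERPINE2 were higher in both knockout libraries, with PMEL at 28.5 and 28.1 against 55.8 and 36.1, and the pigmentation genes MLANA and TYR had 0 reads in each library. All 10 markers of testis germ cells were below 10 in every library, with sums of 3.51 to 4.39 in the parental and 9.77 to 10.5 in the knockout libraries. Of 10 pancreatic acinar markers, 9 were below 10 in every library, and CPA1 and CTRB1 had 0 reads. The 10 blood markers summed to 1590 to 1819 in the parental and 1257 to 2504 in the knockout libraries, mostly from CD68 (968 to 2343). LYZ was higher without overlap (80.0 and 113 against 114 and 263), while the defining marker PTPRC lay between 0 and 1.95. The 9 fibroblast markers summed to 1723 to 1873 in the parental and 1809 to 3278 in the knockout libraries, with PDGFRA (355 and 284 against 1033 and 368) and DCN higher without overlap. The 9 epithelial markers summed to 8267 to 8376 and 7112 to 7733, with KRT14 and KRT18 lower without overlap and CDH1 at 0 reads. Without overlap, 0 were lower and 1 higher of the 4 blood markers tested. The counts were 0 and 2 of 6 for fibroblasts and 2 and 0 of 4 for epithelial cells, to be set beside the same shares of all genes. The part of these markers in the results was not tested. In bulk samples such as these, fewer cells that express a gene and less RNA per cell cannot be told apart.

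PRSS3 (ENSG00000010438.16, GRCh38 chr9:33750466-33799231, plus strand) belongs to a family of trypsinogens whose coding sequences are nearly the same, so the sequences are shown first. In GENCODE 29, the coding sequence of transcript ENST00000379405.3 of PRSS3 was 91.5% identical to that of PRSS1, with 63 differing bases, and 93.3% identical to that of PRSS2, with 50. The 75-base coding stretch with the most differences, bases 289 to 363 counted from the start codon, differed at 17 positions among the 3 genes, which are in capitals (plus strand of chr9:33797917-33797991, chr7:142751862-142751936 and chr7:142773354-142773428):
PRSS3: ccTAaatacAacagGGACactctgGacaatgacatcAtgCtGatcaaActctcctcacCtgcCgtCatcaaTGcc
PRSS1: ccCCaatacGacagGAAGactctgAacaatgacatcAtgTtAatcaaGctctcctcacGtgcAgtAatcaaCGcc
PRSS2: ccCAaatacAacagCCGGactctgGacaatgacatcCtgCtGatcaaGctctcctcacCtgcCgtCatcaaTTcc
The stretch with the fewest differences, bases 187 to 261, differed at only 3 positions:
PRSS3: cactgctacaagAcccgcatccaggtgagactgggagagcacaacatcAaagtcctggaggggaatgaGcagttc
PRSS1: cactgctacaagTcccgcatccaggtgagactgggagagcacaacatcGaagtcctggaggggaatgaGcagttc
PRSS2: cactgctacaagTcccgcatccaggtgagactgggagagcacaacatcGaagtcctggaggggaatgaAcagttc
The longest run without a difference was 39 bases between PRSS3 and PRSS1 and 63 bases between PRSS3 and PRSS2.

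In the parental libraries PRSS3 was measured at 65.8 and 57.0 normalized counts, from 60 and 65 reads, with 0 reads in both knockout libraries. The groups did not overlap, and the counting intervals of the parental values overlapped (50.2 to 84.7 and 44.0 to 72.7, exact 95% Poisson). A count of 0 allows up to 3 reads over both knockout libraries, or a mean of 1.52. The parental mean of 61.4 ± 6.20 (SD, n = 2) was 40.4-fold this limit. With the counting error of the parental reads included, the lower 95% limit of the fold was 32.1 (exact, from summed reads). These intervals and limits reflect counting error alone: without molecular identifiers, reads are not independent molecules. Across the 15431 genes tested, PRSS3 had the lowest log2 difference (knockout minus parental, on log2(normalized count + 1)), at -5.96.

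The rows of the near-identical copies PRSS1, PRSS2 and PRSS3P2 held 0 reads in all 4 libraries. Of 1798 distinct 50-base words in the 8 annotated PRSS3 transcripts, 98 (5.45%) also occurred in a transcript of another gene. PRSS3P1 shared 24 of them, PRSS2 shared 14 and PRSS3P4 shared 9. TMEM45B shared 40 and had 0 reads in all 4 libraries, and UBE2R2-AS1, which overlaps 72 exonic bases of PRSS3 on the opposite strand, shared 25. PRSS3P1, PRSS3P4 and UBE2R2-AS1 had no row under these names, so no counts were available for them. PRSS1 and PRSS3P2 were not among the genes that shared such words. The search covered annotated transcripts and not the genome. The assignment of PRSS3 reads remains uncertain, because no source used here states the read length or how multiply aligned reads were treated. The single row per gene also does not tell the PRSS3 transcripts apart, of which some start near base 33750466 and ENST00000379405.3 at 33795535.

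RNF17 (ENSG00000132972.18, chr13:24764152-24879921, plus strand) had 28 and 46 parental reads, or 30.7 and 40.3 normalized counts. Both knockout libraries held 0 reads, so the groups did not overlap. The parental mean of 35.5 ± 6.82 (SD, n = 2) was 23.4-fold the knockout mean of 1.52 that a count of 0 allows. The lower 95% limit of the fold was 18.8. FGL2 (ENSG00000127951.6, chr7:77193371-77199848, minus strand) had the fewest reads of the 6, 16 and 23 in the parental libraries, or 17.5 and 20.2 normalized counts. It too had 0 reads in both knockout libraries. Its parental mean of 18.9 ± 1.86 (SD, n = 2) was 12.4-fold the same allowed mean, and the lower 95% limit of the fold was 9.70. FGL2 lies within CCDC146, a gene on the opposite strand, but shares 0 exonic bases with it. CCDC146 stood at 76.7 and 77.2 in the parental and at 84.2 and 69.3 in the knockout libraries.

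LPAR4 (ENSG00000147145.12, chrX:78747709-78757094, plus strand) was measured at 50.4 and 36.8 in the parental libraries and was low but present in the knockout libraries, at 6.31 in library 2 and 2.93 in library 8, from 6 and 3 reads. The parental mean was 9.44-fold higher (95% counting interval 4.74 to 21.2, exact, from summed reads). This interval and those that follow leave out the spread between libraries. They are no test, because the genes were chosen on this contrast. ADRA2A (ENSG00000150594.6, chr10:111077163-111080907, plus strand) had 37.3 and 40.3 in the parental libraries. In the knockout libraries it had 2.10 in library 2 and 6.84 in library 8, from 2 and 7 reads, and the parental mean was 8.68-fold higher (4.29 to 19.4). BANCR (ENSG00000278910.4, chr9:69296682-69311111, minus strand) had 91.0 and 80.7 in the parental libraries, from 83 and 92 reads. Its knockout values were 5.26 in library 2 and 8.79 in library 8, from 5 and 9 reads, and the parental mean was 12.2-fold higher (6.98 to 22.5). In these 3 genes the groups did not overlap either, and the knockout libraries did not share an order: LPAR4 was lower in library 8, ADRA2A and BANCR in library 2. The Poisson intervals of the knockout libraries overlapped each other in each of the 3. The log2 difference of ADRA2A was -3.01, but -2.34 without knockout library 2 and -3.68 without knockout library 8.

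**Figure D1:**
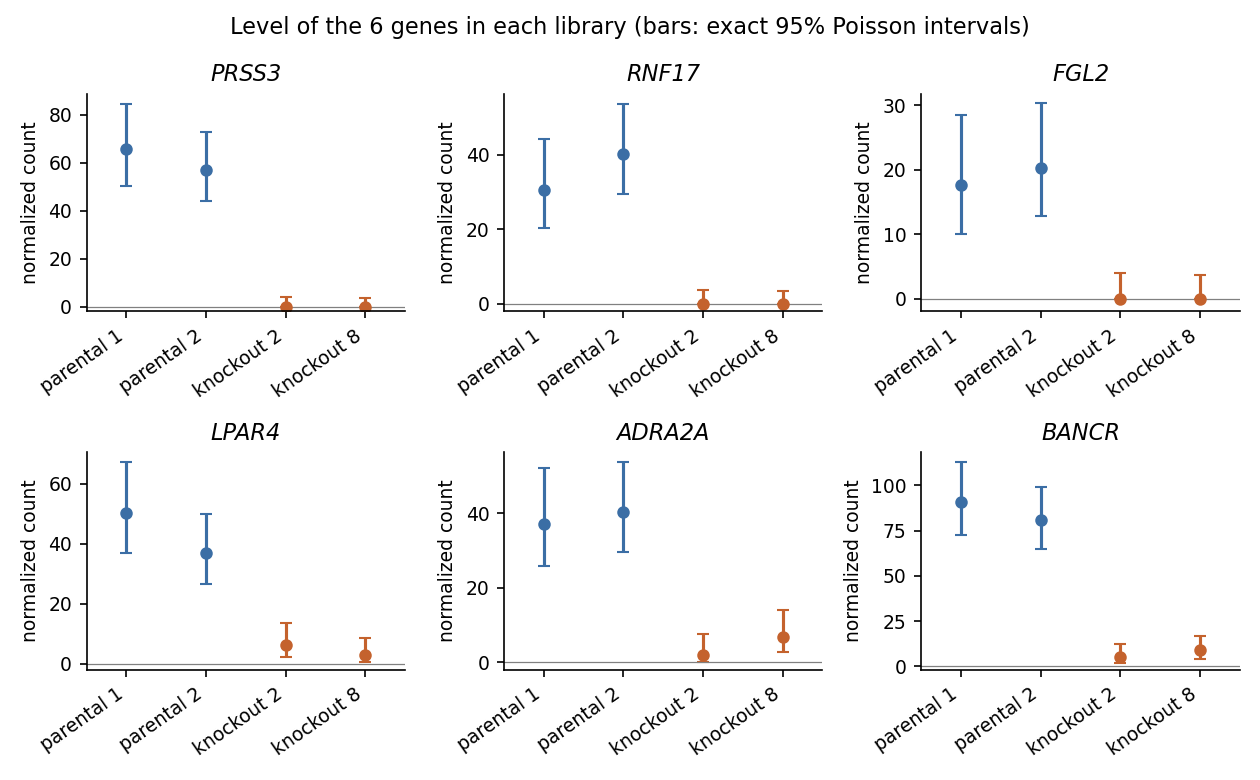
Normalized counts (y axes, separate scale per gene) of the 6 genes in parental libraries 1 and 2 (blue) and knockout libraries 2 and 8 (orange); points are values and bars exact 95% Poisson intervals of the reads. The lowest parental value is 17.5 (FGL2) and the highest knockout value 8.79 (BANCR), and PRSS3, RNF17 and FGL2 have 0 reads in both knockout libraries.

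Summed over the 6 genes, the parental libraries held 267 and 314 reads, and knockout libraries 2 and 8 held 13 and 19. Divided by exonic length, the parental level was 101 normalized counts per kilobase for BANCR, 36.9 for PRSS3, 14.02 for LPAR4, 10.4 for ADRA2A, 6.31 for RNF17 and 4.10 for FGL2. All 6 were below the median of 187 per kilobase over the 14383 tested genes with 1 annotated locus. The counting intervals set BANCR apart from PRSS3, and PRSS3 from the other 4. LPAR4, ADRA2A, RNF17 and FGL2 followed one another with intervals that overlapped between neighbours in this order. Lengths used were those of all annotated exons, which may differ from those transcribed in these cells.

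All 6 genes passed the filter on low values (at least 10 normalized counts in at least 2 libraries), and each passed only through the parental libraries. The knockout values of all 6 lay below both parental values, as they did in 23.7% of all genes tested, with 22.8% the other way. The genes were chosen for this order, so nothing is read from the count. By limma, 0 genes of the table passed an adjusted p of 0.05 in either direction (0% called), while 950 were lower and 903 higher before adjustment (p under 0.05). With edgeR's quasi-likelihood test the count was also 0 (921 and 946 before adjustment). DESeq2 called 200 genes lower (1.22% of 16330) and 198 higher (1.21%).

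Few rows of the table showed the loss at this size. Of 14963 rows with at least 10 normalized counts in both parental libraries, 8 (0.0535%) were, in both knockout libraries, at or below 10% of the lower parental value, among them PRSS3, RNF17 and FGL2. The others were GAGE1, NR1H4, CT55, TSSC2 and PKIA-AS1. BANCR lay just outside this limit, with its higher knockout value at 10.9% of its lower parental value, and LPAR4 and ADRA2A lay at 17.1% and 18.3%. TSSC2, at 8.68%, was the closest row inside. A single knockout library met the limit far more often, in 52 rows for library 2 and in 38 rows for library 8. The reverse pattern, at least 10 in both knockout libraries and at most 10% of that in both parental ones, was seen in 2 of 14899 rows. These were CHRNA3, a nicotinic receptor subunit, at 0 and 1.75 against 24.2 and 26.4, and MMP3, a matrix metalloproteinase, at 0 and 0.877 against 13.7 and 25.4. With a single knockout library, the reverse pattern was met in 68 rows for library 2 and in 25 rows for library 8. With 0 reads in the lower group there were 4 rows in the first direction and 0 in the reverse direction. Counts of these rows depend on the limits chosen, as given with the other settings.

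Rows were ranked by likeness to the pattern, with the log2 ratio of the lower parental to the higher knockout value, each plus 1, over the 4 libraries. PRSS3, RNF17 and FGL2 ranked 1, 2 and 3, BANCR 9, LPAR4 15 and ADRA2A 17. The nearest other row was GAGE1, a cancer-testis antigen with near-identical copies on the X chromosome and therefore of uncertain assignment, at 45.0 and 63.2 in the parental libraries against 2.10 and 1.95 in the knockout libraries. NR1H4, the bile acid receptor, went from 13.2 and 12.3 to 0 reads in both. CT55, another cancer-testis gene, had 35.1 and 38.6 against 2.10 and 0.977. Others among the 10 rows most alike were the pseudogene TSSC2, LOC100507065, PKIA-AS1, EDA2R, TENM4 and CSMD2. EDA2R, a p53 target, had 252 and 250 against 16.8 and 42.0. These rows were picked by their likeness, so they get no test, and likeness over 4 libraries says nothing of shared function or control.

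Position was not used to choose the genes, so the 10 nearest tested genes on each side were examined. The median log2 difference over all genes tested was -0.0057. Medians of the neighbours were 0.020 at PRSS3, -0.11 at RNF17, -0.057 at FGL2, -0.020 at LPAR4, 0.13 at ADRA2A and -0.038 at BANCR. The spread of such medians over other windows is not given here. For each gene, 0 of its 20 neighbours had a difference as low. The 6 genes were chosen for such a difference, so nothing is read from this. Of the 120 neighbours, 28 (23.3%) were lower and 28 higher in both knockout libraries without overlap, against 23.7% and 22.8% of all genes tested. The windows differed. Of 20 neighbours each, 3 were lower and 8 higher at ADRA2A, and 7 and 5 at RNF17. The counts were 3 and 4 at PRSS3, 6 and 3 at FGL2, 6 and 5 at LPAR4, and 3 and 3 at BANCR. The 10% limit was met by 0 of them, and by only 0.0535% of the 14963 rows that could meet it. Medians per knockout library lay between -0.082 and 0.20 in library 2 and between -0.094 and 0.10 in library 8.

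The nearest tested genes kept reads in the knockout libraries, at levels from low to high. Genes below the low-value filter were left out. At low levels, PTENP1-AS, 62.5 kb from PRSS3, had 31.8 and 28.9 in the parental libraries against 25.3 and 37.1. PMS2P9, 150 kb from FGL2, had 19.7 and 22.8 against 13.7 and 19.5. UBE2R2, a ubiquitin-conjugating enzyme 18.3 kb from PRSS3, had 4521 in each parental library and 4124 and 3950 in the knockout libraries. CENPJ, a centriole protein 2.36 kb from RNF17, had 1558 and 1654 against 1480 and 1510. FAM189A2, 13.5 kb from BANCR, had 91.0 and 88.6 against 64.2 and 90.8. SHOC2, a scaffold of RAS signalling 63.5 kb from ADRA2A, had 2110 and 2167 against 2478 and 2377. The tested neighbours of LPAR4 were far off. The nearest on each side were TAF9B at 608 kb, with 1260 and 1267 against 881 and 1185, and CHMP1B2P at 1471 kb, with 140 and 155 against 77.9 and 128.

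A few neighbours differed more. Next to BANCR, APBA1, an adaptor protein of neurons, had 21.9 and 24.6 in the parental libraries against 138 and 43.0 (log2 difference 1.69 ± 0.60 SE, limma adjusted p = 0.396), and MAMDC2 had 54.8 and 45.6 against 7.37 and 33.2 (-1.59 ± 0.73, adjusted p = 0.476). Within the RNF17 window SHISA2 had 840 and 1234 against 6288 and 1979 (1.79 ± 0.58, adjusted p = 0.373). DESeq2 called 1 of the 120 neighbours, ZDHHC6 in the ADRA2A window, higher (1422 and 1519 against 2946 and 1982, DESeq2 adjusted p = 0.0484, limma adjusted p = 0.330).

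**Figure D2:**
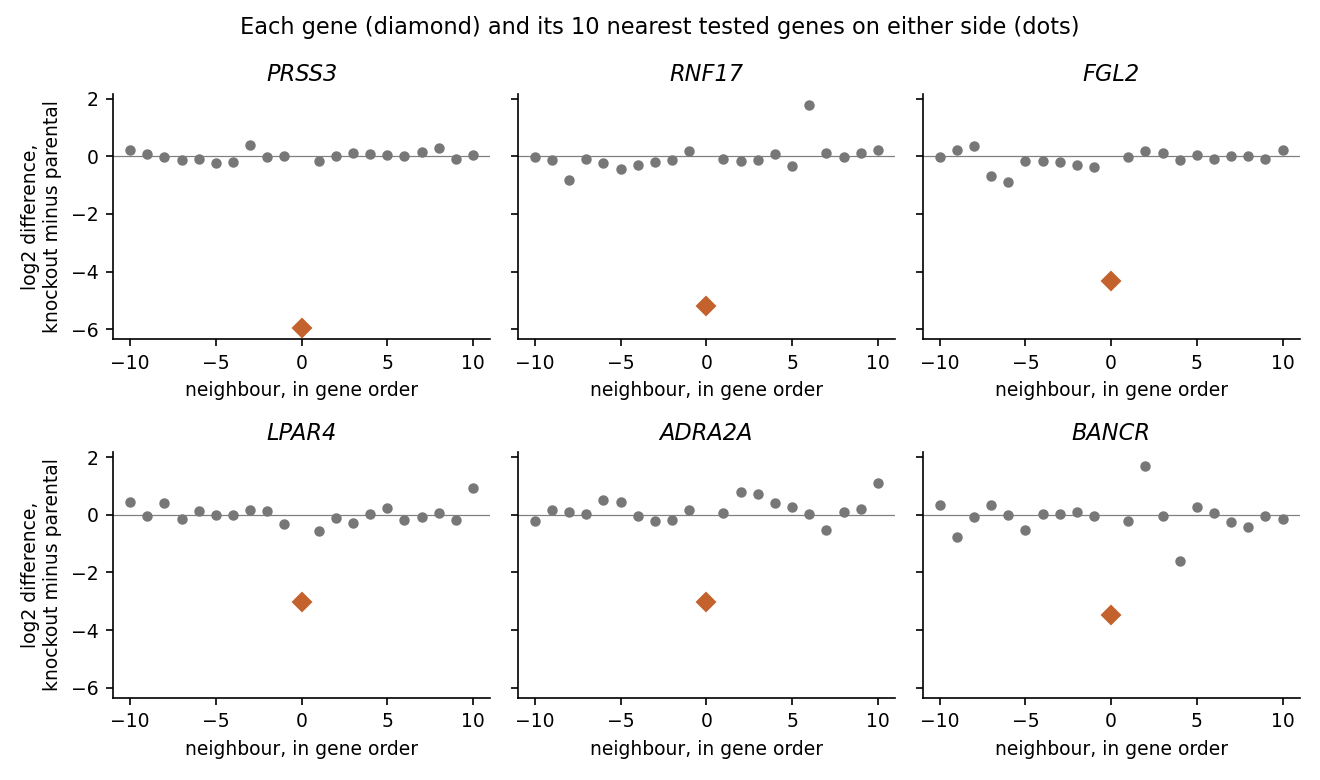
Log2 difference, knockout minus parental, of each of the 6 genes (orange diamond at 0) and of its 10 nearest tested genes on either side (grey dots, in gene order). The 6 genes, chosen for their low knockout values, lie between -5.96 and -3.01, below each of their 20 neighbours. The lowest value of a neighbour is -1.59 (MAMDC2, near BANCR).

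The promoters of the 3 genes without a knockout read are shown because these genes had the same pattern in the same libraries. RefSeq sequences (GRCh38.p14, 250 bases before to 50 after the annotated start) were found for 5 of the 6 genes; BANCR had no entry. Both strands were searched for the p53 half-site, for TGANTCA (bound by AP-1), CACGTG (an E-box), CCAAT and TATAAA, and matches are in capitals:
PRSS3 (chr9:33795311-33795610, plus strand): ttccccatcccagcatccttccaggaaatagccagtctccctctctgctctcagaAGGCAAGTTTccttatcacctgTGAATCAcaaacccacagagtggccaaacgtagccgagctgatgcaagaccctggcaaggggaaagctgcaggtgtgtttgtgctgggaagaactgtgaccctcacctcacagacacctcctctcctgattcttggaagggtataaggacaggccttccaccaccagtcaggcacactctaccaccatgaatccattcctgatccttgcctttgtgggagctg
RNF17 (chr13:24763919-24764218, plus strand): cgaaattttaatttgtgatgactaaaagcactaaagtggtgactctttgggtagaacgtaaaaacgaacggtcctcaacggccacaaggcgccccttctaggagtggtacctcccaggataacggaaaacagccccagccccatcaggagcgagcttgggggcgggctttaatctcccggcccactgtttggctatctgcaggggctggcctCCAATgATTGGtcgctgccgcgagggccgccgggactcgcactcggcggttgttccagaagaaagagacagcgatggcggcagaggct
FGL2 (chr7:77199770-77200069, minus strand): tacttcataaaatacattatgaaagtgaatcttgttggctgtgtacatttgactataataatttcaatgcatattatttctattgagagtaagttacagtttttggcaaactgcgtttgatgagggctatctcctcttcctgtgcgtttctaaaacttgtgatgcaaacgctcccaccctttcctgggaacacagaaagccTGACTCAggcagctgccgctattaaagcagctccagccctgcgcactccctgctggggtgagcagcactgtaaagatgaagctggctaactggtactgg

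No motif searched was present in all 5 promoters. PRSS3 held the only p53 half-site match, AGGCAAGTTT, from position -195 to -186 relative to the start, and 6.64% of 35093 RefSeq promoters hold at least 1. TGANTCA occurred in PRSS3 and FGL2 (7.71% of promoters), CACGTG in ADRA2A (7.26%), CCAAT on both strands in RNF17 and LPAR4 (34.6%), and TATAAA in LPAR4 and ADRA2A (11.5%). A match is a description of letters and does not show a site in use. CpG content also differed, from 2 CpG in PRSS3, 5 in FGL2 and 6 in LPAR4 to 20 in RNF17 and 26 in ADRA2A, against a median of 14. The PRSS3 window covers the start of ENST00000379405.3 and not the upstream start.

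The partners of each gene came next. Trypsins are activated by enteropeptidase, signal through protease-activated receptors and are held in check by Kunitz and Kazal inhibitors. Of 34 such genes and other trypsin-like proteases, 16 were tested; 4 were lower and 6 higher without overlap (against 23.7% and 22.8% of all genes tested), and limma and DESeq2 called 0 (by limma, 1 lower and 2 higher at an unadjusted p under 0.05). The median log2 difference was 0.14, but -0.17 without knockout library 2 and 0.30 without knockout library 8; it was 0.079 and 0.066 without parental library 1 or 2. PRSS23 and PRSS12, serine proteases that are no trypsinogens, had 2324 and 2574 against 3110 and 1984, and 794 and 703 against 815 and 637. The thrombin receptor F2R had 3036 and 2915 against 2777 and 1331. TFPI2, a Kunitz inhibitor, had 1376 and 1576 against 7939 and 3161 (1.77 ± 0.45 SE, limma adjusted p = 0.306, DESeq2 adjusted p = 0.082). TMPRSS15, enteropeptidase itself, named after its values were seen, had 317 and 287 against 29.5 and 126 (-2.28 ± 0.70, limma adjusted p = 0.353, DESeq2 adjusted p = 0.051).

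Among 31 tudor-domain and piRNA-pathway genes, 15 were tested, with a median of -0.064; 4 were lower and 3 higher without overlap (against 23.7% and 22.8% of all genes tested), and limma called 0 (1 and 1 unadjusted). The median was 0.039 without knockout library 8 and -0.17 without parental library 2. DESeq2 called 1 higher (of all genes, 1.21%), SPOCD1, a factor of piRNA-directed DNA methylation in germ cells, at 479 and 451 against 800 and 775 (0.76 ± 0.11, DESeq2 adjusted p = 0.0016, limma adjusted p = 0.206). Several tudor genes stayed well above 0 in the knockout libraries: TDRKH had 1111 and 1198 against 1162 and 739, TDRD3 had 909 and 908 against 709 and 762, and TDRD7 had 627 and 618 against 640 and 779. The methyltransferase PRMT5, which modifies the arginines that tudor domains bind, had 3905 and 3897 against 3793 and 3674. GTSF1, a PIWI cofactor, had 2880 and 2967 against 2910 and 2831, and AKAP1, an anchor protein of mitochondria, had 2111 and 2337 against 2077 and 2387. The PIWI genes themselves were at or near 0: PIWIL1 and PIWIL3 had 0 reads in each library, PIWIL4 reached 7.37 and PIWIL2 reached 9.87.

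Of 29 proteins with a fibrinogen-like domain and coagulation partners of FGL2, 12 were tested; 5 were lower and 2 higher without overlap (against 23.7% and 22.8% of all genes tested), and limma and DESeq2 called 0 (by limma, 2 lower and 0 higher unadjusted). The median was -0.17, -0.26 without knockout library 2 and -0.021 without parental library 1. The sister gene FGL1 had 0 reads in all 4 libraries. The matrix protein tenascin C, TNC, had 63595 and 55345 against 70623 and 48940. The angiopoietin family genes ANGPTL2, ANGPTL4 and ANGPT1 had 1551 and 1496 against 935 and 1279, 1342 and 426 against 546 and 287, and 556 and 580 against 631 and 582. FCGR2B, a receptor of soluble FGL2, had 62.5 and 71.0 against 45.3 and 49.8. Coagulation factor V, F5, named after its values were seen, had 24.1 and 19.3 against 2.10 and 4.88 (-2.40 ± 0.49 SE, limma adjusted p = 0.261, DESeq2 adjusted p = 0.284).

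Lysophosphatidic acid acts through 6 receptors, all of which had reads. The other 5 did not show a loss of the size seen for LPAR4, but LPAR2, LPAR3 and LPAR6 were also lower without overlap. LPAR6 had 764 and 706 against 661 and 589, LPAR3 had 481 and 465 against 343 and 351, and LPAR2 had 401 and 403 against 316 and 296. LPAR1 had 107 and 119 against 116 and 67.4. LPAR5 did not pass the low-value filter and was not tested. It had 24.2 and 8.79 in the knockout libraries (23 and 9 reads) against parental values of 7.67 and 6.14 (7 reads each). In library 8 its count was thus close to the parental ones. Over the list of 29 receptors, enzymes and G protein partners, 21 were tested, with a median of -0.10; 9 were lower and 3 higher without overlap (against 23.7% and 22.8% of all genes tested), and limma and DESeq2 called 0 (by limma, 3 and 1 unadjusted). The 4 with the highest normalized counts (not set per length) were GNAQ, a G protein subunit, at 3385 and 3365 against 3168 and 3126, and the guanine nucleotide exchange factors ARHGEF1, ARHGEF11 and ARHGEF12, at 8610 and 8339 against 7422 and 7750, 4649 and 4816 against 7537 and 4675, and 7497 and 7130 against 10483 and 7502.

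Among the adrenergic receptors the directions parted. ADRA2A was the only one lower without overlap, while ADRA1B had 8.77 and 16.7 against 52.6 and 46.9, ADRA1D had 16.4 and 11.4 against 24.2 and 27.3, and ADRB1 had 37.3 and 52.6 against 130 and 71.3. None of these was called: the log2 difference of ADRB1, which also lies in the ADRA2A window, was 1.11 ± 0.39 SE (limma adjusted p = 0.395). ADRA1A had 0 reads in each library. Of 39 genes of receptors, inhibitory G protein signalling and catecholamine metabolism, 27 were tested; 7 were lower and 9 higher without overlap (against 23.7% and 22.8% of all genes tested), and limma and DESeq2 called 0 (by limma, 1 and 4 unadjusted). The median was 0.031, -0.016 without knockout library 2, 0.16 without knockout library 8 and 0.11 without parental library 2. The subunits GNAI2 and GNAI3, through which ADRA2A inhibits adenylyl cyclase, had 8919 and 8494 against 11169 and 9519, and 4394 and 4460 against 5846 and 5259. The cyclase ADCY6 had 4779 and 4487 against 3930 and 3700, and the receptor kinase ADRBK1 had 3664 and 3801 against 3849 and 3692.

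**Figure D3:**
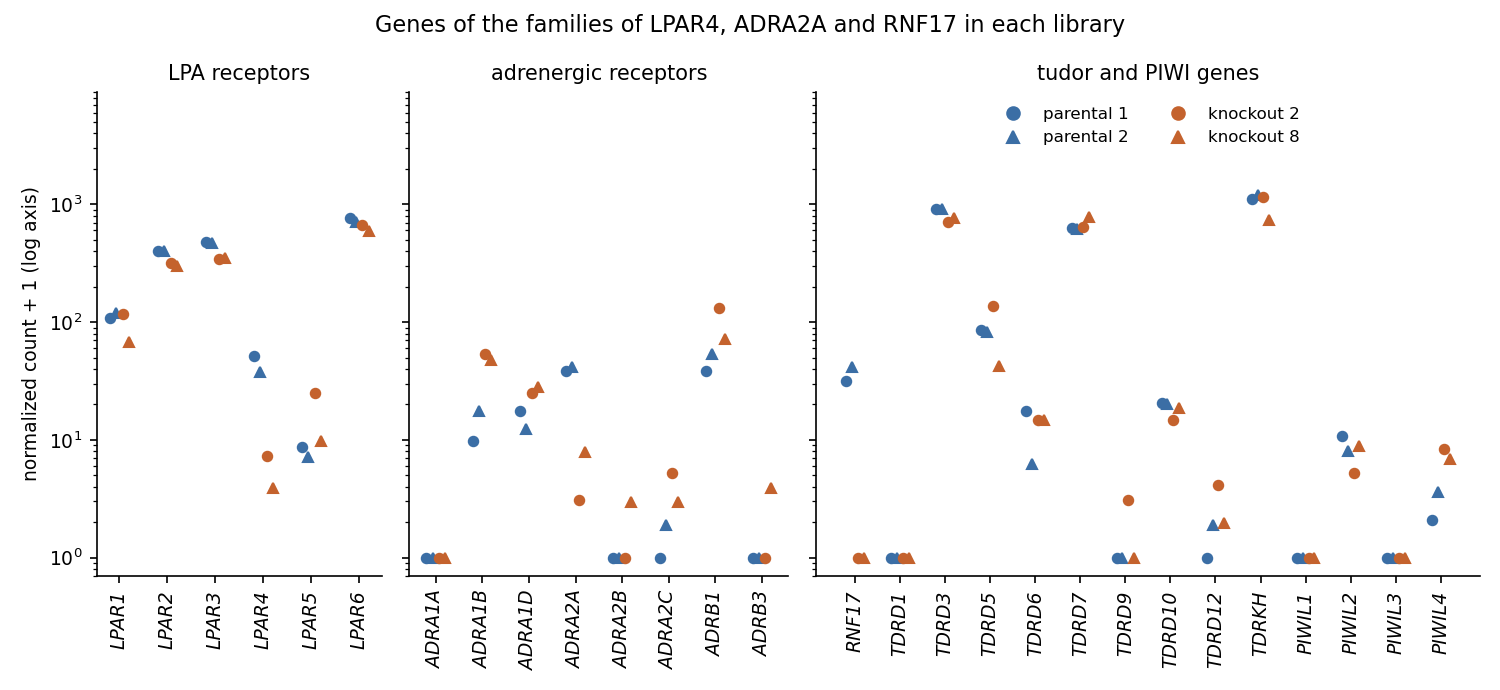
Normalized count plus 1 (log axis) of the lysophosphatidic acid receptors, of adrenergic receptors, and of RNF17 with the TDRD genes, TDRKH and the PIWI genes; circles are parental library 1 and knockout library 2, triangles parental library 2 and knockout library 8, blue parental and orange knockout. LPAR4, ADRA2A and RNF17, which were chosen for it, are lower in both knockout libraries. LPAR2, LPAR3, LPAR6, TDRD3 and TDRD10 are also lower without overlap, by less. ADRA1B, ADRB1 and TDRD7 are among those higher without overlap, and the 4 values of LPAR6 and of TDRD7 lie close together.

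BANCR was set beside other long non-coding RNAs studied in melanoma. Of 20, 16 were tested, with a median of -0.12; 5 were lower and 2 higher without overlap (against 23.7% and 22.8% of all genes tested), and limma and DESeq2 called 0 (by limma, 1 and 1 unadjusted). The median was 0.056 without knockout library 2 and -0.46 without knockout library 8. The 4 with the highest normalized counts were MALAT1, at 57616 and 58709 against 43319 and 50975, NEAT1, at 29714 and 25996 against 29426 and 29580, GAS5, at 13244 and 11653 against 7789 and 10165, and TUG1, at 5951 and 5311 against 6182 and 6068. SAMMSON, listed under its older symbol LINC01212 and transcribed next to MITF, had 104 and 111 against 109 and 68.4. All 20 genes of a list of MAPK outputs and CXCL11, a chemokine reported to depend on BANCR, were tested; 6 were lower and 2 higher without overlap (against 23.7% and 22.8% of all genes tested). The median was 0.0040, but -0.10 without knockout library 2 and -0.069 without knockout library 8, and 0.0062 and 0.027 without parental library 1 or 2. CXCL11 had 32.9 and 41.2 against 107 and 35.2. DESeq2 called 1 lower, the feedback inhibitor SPRY2 (10926 and 10853 against 8015 and 8575, adjusted p = 0.0388), and 1 higher, the early response gene IER3 (9939 and 10400 against 19085 and 13303, adjusted p = 0.0432), against 1.22% and 1.21% of all genes, and limma called 0 (2 lower and 1 higher unadjusted). SPRY4, PHLDA1 and CCND1 were not called, at 26366 and 24347 against 16190 and 22617, 44289 and 41631 against 40004 and 35956, and 15789 and 16733 against 24438 and 15396.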

How the data were processed

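Poly(A)-enriched RNA of 2 parental and 2 p53 knockout A375 libraries was sequenced from a directional kit, per the labels' protocols. The submitters' processing notes name STAR, Picard, HTSeq, DESeq2, deepTools and the build hg38. No source used here gives versions, read length, strand setting or the treatment of multiply aligned reads. The authors deposited 1 table of normalized signal (26484 gene rows), which equals reads divided by 1 factor per library: 100% of values came out whole within 0.001 reads, and the factors (0.912 to 1.14) equal median-of-ratios size factors. Reads were recovered from it (29230554 to 36331894 per library).

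The main test was limma 3.58.1 (trend option, two-sided) on values transformed as log2(normalized count + 1), with Benjamini-Hochberg adjustment over 15431 genes with at least 10 normalized counts in at least 2 libraries; fold changes on this scale understate changes of low genes. Alternatives were edgeR 4.0.16 (quasi-likelihood, TMM) and DESeq2 1.42.0 on recovered reads, other pseudocounts, filters and limits, and leaving out each library. The limma code was tested on simulated data with equal spread in both groups and changes placed only in genes of higher level. That setting is unlike these libraries and the 6 genes, so nothing is read from it for them. Genes named were the 6 genes, trypsinogen copies, the nearest neighbours, the 10 rows most alike, and per list those called plus the 4 with the highest mean; other genes named serve as family members or as the extremes of a window. The 6 genes and all lists were chosen with earlier results of these data known. Positions are from GENCODE 29 (GRCh38). Some results that this rule names are not reported here.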

Additional observations from a re-analysis of the deposited data

How the results depend on the processing

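No paired analysis was possible because the numbers of the knockout columns, 2 and 8, do not tell which labelled replicate each column is. DESeq2 called 200 genes lower and 198 higher, against 0 and 0 by limma; it called 1 higher in the tudor list, and 1 lower and 1 higher in the MAPK list. The 8 rows with the loss became 13 with a parental minimum of 5, 5 with a minimum of 20 and 15 with a ceiling of 3 reads, and the 2 rows of the reverse pattern became 6, 1 and 9. With a pseudocount of 0.1 the log2 differences of PRSS3, RNF17 and FGL2 were -9.26, -8.46 and -7.56, since the knockout value is then the pseudocount alone. With 5 neighbours per side the medians were -0.15 at RNF17, -0.15 at FGL2 and 0.22 at ADRA2A. Without the low-value filter they were 0.032 at RNF17, a change of sign, 0.34 for the trypsin list, -0.013 for the fibrinogen list and -0.086 for the lysophosphatidic acid list.

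Leaving out each library in turn, limma called 0 to 2602 genes lower and 0 to 2421 higher: 1587 and 1309 without knockout library 2, and 2602 and 2421 without knockout library 8, where the lone knockout library is assumed to vary like the parental pair. The loss was then met by 12 to 52 rows (12 after dropping parental 1 or parental 2, 38 after dropping knockout 2 and 52 after dropping knockout 8) and the reverse pattern by 3 to 68. The log2 differences ranged from -6.06 to -5.86 (PRSS3), -5.37 to -4.99 (RNF17), -4.40 to -4.21 (FGL2), -3.49 to -2.59 (LPAR4), -3.68 to -2.34 (ADRA2A) and -3.79 to -3.15 (BANCR). Neighbour medians ranged from -0.0077 to 0.096 at PRSS3, -0.10 to -0.030 at RNF17, -0.094 to -0.020 at FGL2, -0.056 to 0.056 at LPAR4, 0.10 to 0.20 at ADRA2A and -0.11 to 0.039 at BANCR. List medians ranged from -0.17 to 0.30 (trypsin), -0.17 to 0.039 (tudor), -0.26 to -0.021 (fibrinogen), -0.11 to -0.082 (lysophosphatidic acid), -0.016 to 0.16 (adrenergic), -0.46 to 0.056 (non-coding RNA) and -0.10 to 0.027 (MAPK). Lower and higher calls reached, from 0, at most 4 and 4 (trypsin), 4 and 3 (tudor), 3 and 1 (fibrinogen), 5 and 3 (lysophosphatidic acid), 4 and 8 (adrenergic), 6 and 1 (non-coding RNA) and 7 and 7 (MAPK). The causes were not tested. The knockout values of the 6 genes rest on only 13 and 19 reads in libraries 2 and 8, and differences in them between these libraries were not tested.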
